A study of Mus musculus with 6 samples.

Results

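The sites described here are the CpG positions of the ribosomal DNA (rDNA) copy that genome build mm9 holds on chromosome 17, measured by whole-genome bisulfite sequencing. They were chosen by position and depth: every CpG between positions 39970001 and 40000000 with at least 100 reads in each of 3 cell lines. Of 701 CpG positions in this 30 kb window, 550 met the rule, out of 20782144 positions in the whole table. The lines were mouse embryonic stem cells, each carrying null alleles of Dnmt1, Dnmt3a and Dnmt3b, so that all 3 lack the endogenous DNA methyltransferases. The first line expressed DNMT3B1 and was in addition knocked out for SETD2. The second expressed DNMT3B1 and the third DNMT3A2. Each line came with 2 sequencing runs, with no mention of separate cultures or clones, and 1 set of values. It therefore counts as 1 library, and no p-value is given. Intervals of levels are exact (Clopper-Pearson) 95% binomial intervals, and those of ratios are 95% normal approximations on the log2 scale. Both kinds cover counting error only. The labels name neither the promoter of the expressed enzymes nor their amount, so levels describe lines and not enzyme activities. They name culture on feeder cells or on gelatine, and the share of feeder DNA was not tested. The sample titles name a HiSeq and a MiSeq run for the DNMT3B1 and the DNMT3A2 line. For the knockout they name a single and a paired-end run. Differences between the knockout and the other lines therefore cannot be told apart from differences in how the libraries were sequenced.

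Ribosomal DNA encodes the precursor of the large ribosomal RNAs and lies in the genome as many near-identical tandem copies, of which some are transcribed by RNA polymerase I and others are kept silent. In normal mouse cells the silent copies carry CpG methylation at their promoter, placed by de novo methyltransferases and maintained by DNMT1. DNMT3A and DNMT3B set methylation de novo, and DNMT3A2 and DNMT3B1 are catalytically active isoforms of them. SETD2 trimethylates lysine 36 of histone H3 in genes transcribed by RNA polymerase II, a mark that DNMT3B can bind. Because the assembly holds 1 copy at this place, reads from other copies that are alike in sequence can be mapped here, and a level is then an average over copies.

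Coverage of this stretch was far above that of the rest of the genome. The 550 sites lay within 5.82 kb, from 39979946 to 39985767, at 94.5 sites per kb. Median coverage was 1608.5 reads per site in the SETD2 knockout, 1257 with DNMT3B1 and 1122 with DNMT3A2. Over all covered CpGs the medians were 16, 8 and 9 reads in the same order, the first of them over listed sites only, since the knockout values start at 10 reads. These 550 sites held 0.435% of the knockout reads, 0.343% of the DNMT3B1 reads and 0.290% of the DNMT3A2 reads, from totals of 200947834, 188661576 and 200364080. The knockout total leaves out sites under 10 reads, so its share is not on the same base as the other 2. The annotation of this build was not used here, so the identity of the stretch as the Rn45s copy, the gene of the 45S precursor, rests on its position. A RefSeq gene table of the later build GRCm38.p6 lists Rn18s-rs5, typed as a pseudogene, on chromosome 17, but its position was not carried over to mm9. Which positions encode the mature rRNAs or spacers was therefore not assigned.

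**Figure D1:**
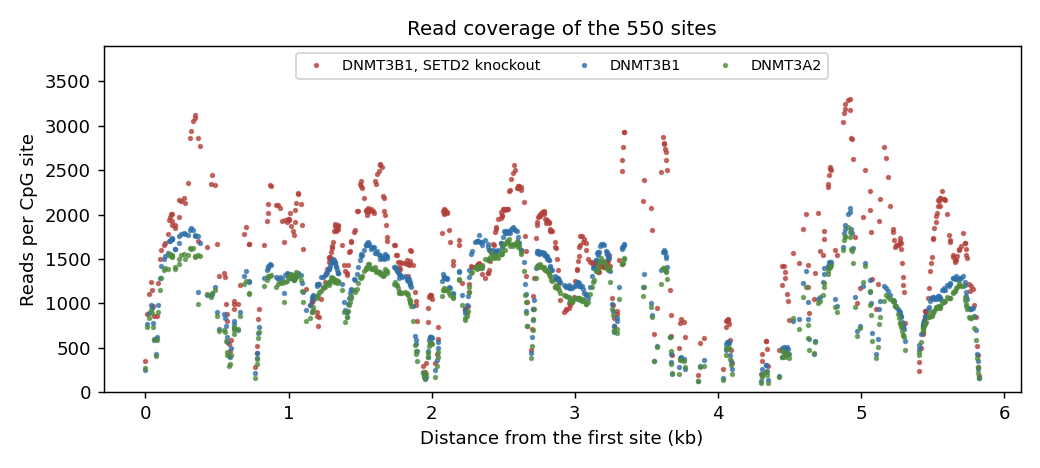
Reads per CpG site (vertical axis) against the distance from the first site in kb (horizontal axis) for the 550 sites in the SETD2 knockout, DNMT3B1 and DNMT3A2 lines, each point being 1 site. Coverage rose and fell along the unit in all 3 lines, between 183 and 3308 reads in the knockout, 124 and 2076 with DNMT3B1 and 103 and 1859 with DNMT3A2.

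Coverage followed nearly the same course in the DNMT3B1 and the DNMT3A2 line, with a Pearson r of 0.99 over the 550 sites, and a less similar one in the knockout, with r of 0.79 against DNMT3B1 and 0.80 against DNMT3A2. These correlations describe libraries mapped to the same sequence, and neighbouring sites share reads. Of 593 CpG positions between the first and the last site, 43 missed the read minimum. Most of them, 39, lay between 39983362 and 39984357, where 44 sites passed. The longest run of missing sites held 15 CpGs from 39984054 to 39984235, with a median of 0 listed reads in each line. Just inside the minimum stood position 39984245, where 3 of 203 reads were methylated in the knockout, 1 of 128 with DNMT3B1 and 0 of 103 with DNMT3A2. Next to it came position 39984298, with 295, 133 and 105 reads and none methylated. Just outside stood position 39983802, with 99, 69 and 77 reads and 0, 0 and 1 methylated, and position 39984357, with 184, 63 and 64 reads and none methylated. The 108 CpGs of the window beyond the 5.82 kb had at most 21, 19 and 22 reads in the same order of lines, so that the high coverage ended there.

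Methylation of the rDNA copy was low in all 3 lines, and it was highest in the SETD2 knockout line. There 5168 of 873730 reads were methylated, a level of 0.591% (0.576% to 0.608%). The DNMT3B1 line had 1047 methylated among 646618 reads, 0.162% (0.152% to 0.172%). The DNMT3A2 line had 572 among 581595, 0.0984% (0.0905% to 0.107%). The intervals of the 3 lines did not overlap. The knockout level was 3.65 times that of the DNMT3B1 line (3.42 to 3.90), a log2 ratio of 1.87, and 6.01 times that of the DNMT3A2 line (5.52 to 6.56). The DNMT3B1 level was 1.65 times that of the DNMT3A2 line (1.49 to 1.82), a log2 ratio of 0.72. In absolute terms these differences were 0.430 percentage points between the knockout and the DNMT3B1 line and 0.0636 points between the DNMT3B1 and the DNMT3A2 line.

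These ratios stood apart from those of the whole genome. The comparison took 7065836 other CpGs, covered 5-fold or more in all 3 lines and at no more than 5 times the median. For the knockout this meant 10 reads or more, since its values start at 10 reads. Over these CpGs the level was 5.87% in the knockout, 2.75% with DNMT3B1 and 7.28% with DNMT3A2. The knockout level there was 2.13 times that of DNMT3B1, against 3.65 times in the rDNA copy. The DNMT3B1 level was 0.378 times that of DNMT3A2, against 1.65 times. The rDNA copy thus carried 10.1% of the genome-wide level in the knockout, 5.88% with DNMT3B1 and 1.35% with DNMT3A2. DNMT3A2, the line with the highest level across the genome, had the lowest in the rDNA copy.

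Much of the drop in level was shared by other CpG-dense DNA, but the order of DNMT3B1 above DNMT3A2 was not. The rDNA sites had a median of 107 CpGs per kb around them (43 to 133, counted within 500 bp on each side), so they were compared with the rest of the genome in the same bins of density. At the density mix of the rDNA sites, the rest of the genome was methylated at 0.455% in the knockout, 0.159% with DNMT3B1 and 0.215% with DNMT3A2. The rDNA level was 1.30 times this value in the knockout (1.26 to 1.34), 1.02 times with DNMT3B1 (0.956 to 1.09) and 0.458 times with DNMT3A2 (0.421 to 0.498). Averaged over the bins, the rDNA copy lay above matched DNA in the knockout and below it with DNMT3A2. The averages of the knockout and of DNMT3B1 both cover bins that differed in opposite directions. At matched density the knockout over DNMT3B1 ratio of the rest of the genome was 2.86 and the DNMT3B1 over DNMT3A2 ratio 0.739.

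**Figure D2:**
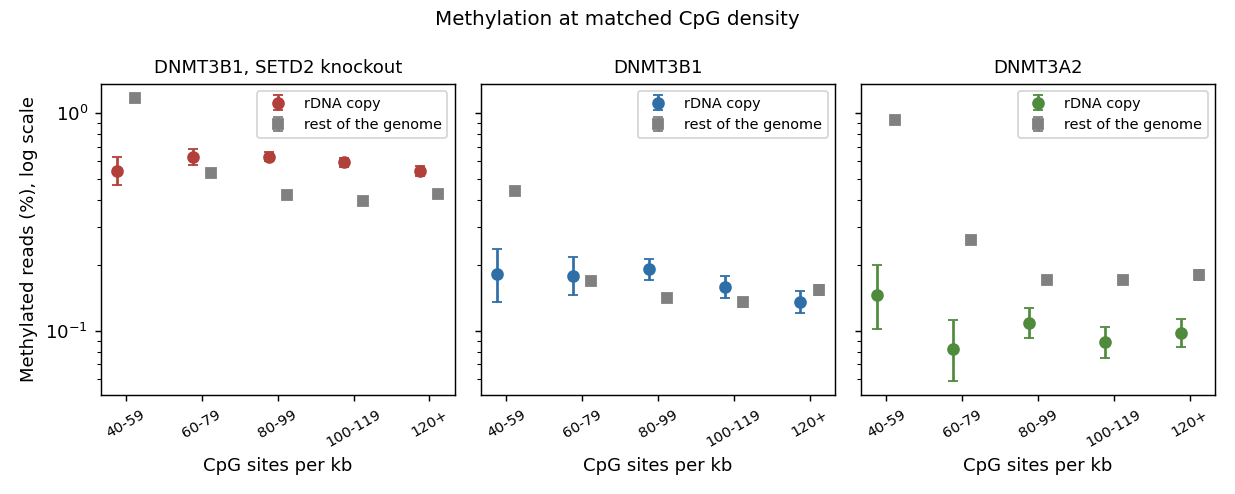
Methylated reads in percent on a log scale (vertical axis) by CpG sites per kb (horizontal axis) for the SETD2 knockout, DNMT3B1 and DNMT3A2 lines. Round points are the rDNA sites, squares the rest of the genome, and bars exact 95% binomial intervals. With DNMT3A2 the round points lie below the squares in all 5 bins, at 0.0978% against 0.180% in the densest, and in the knockout they lie above the squares in the 4 densest bins.

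Within the density bins the order was not the same throughout. At 80 to 99 CpGs per kb, where 157 rDNA sites lay, the level was 0.632% in the rDNA copy and 0.423% in the rest of the genome for the knockout, 0.192% and 0.140% for DNMT3B1, and 0.109% and 0.171% for DNMT3A2. At 100 to 119, with 167 rDNA sites, it was 0.594% and 0.396% for the knockout, 0.159% (0.142% to 0.178%) and 0.135% (0.129% to 0.141%) for DNMT3B1, and 0.0881% and 0.170% for DNMT3A2. In the densest bin, at 120 and more, the 149 rDNA sites had 0.544% against 0.426% in the knockout, 0.136% (0.120% to 0.152%) against 0.154% with DNMT3B1 and 0.0978% against 0.180% with DNMT3A2. At 40 to 59 CpGs per kb the 23 rDNA sites were below the rest of the genome in all 3 lines, at 0.544% against 1.17% in the knockout, 0.181% against 0.441% with DNMT3B1 and 0.145% against 0.930% with DNMT3A2. Across these bins the rest of the genome changed by several fold while the rDNA levels stayed between 0.544% and 0.632% in the knockout, 0.136% and 0.192% with DNMT3B1 and 0.0823% and 0.145% with DNMT3A2. Over the 550 sites the Pearson r between level and density was -0.06, -0.07 and -0.04 in the same order, as a description of sites that share reads.

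Set against single bins instead, the rDNA copy lay inside their spread in the knockout, while depth largely decided the comparison with DNMT3B1 and DNMT3A2. Of 17651 bins of 1 kb elsewhere that held 40 or more CpGs and 100 or more reads per line, 56.2% had a level below the lowest rDNA bin in the knockout, 63.8% with DNMT3B1 and 47.3% with DNMT3A2. The median of those bins was 0.448%, 0% and 0.112%. The comparison is limited by their depth, a median of 734, 500 and 501 reads per bin, so that 57.0% of them had no methylated read with DNMT3B1 and 46.7% none with DNMT3A2. In these 2 lines the bins below the rDNA copy were mostly such bins. With reads pooled, the bins had 0.740%, 0.264% and 0.499% methylation. Their minimum of 40 CpGs also lies under the median density of 107 per kb around the rDNA sites.

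Along the unit the order of the lines held in every bin. In 6 bins of 1 kb counted from the first site, the knockout ranged from 0.537% to 0.762%, the DNMT3B1 line from 0.146% to 0.207% and the DNMT3A2 line from 0.0672% to 0.122%, so that the 3 ranges did not overlap. The mean over bins was 0.608 ± 0.0851% in the knockout, 0.168 ± 0.0212% with DNMT3B1 and 0.100 ± 0.0224% with DNMT3A2 (SD over 6 bins of 1 library each, so the SD describes the unit and not replicates). At 1 kb the highest bin of both DNMT3B1-expressing lines was the same, from 39983946 to 39984945, with 0.762% in the knockout (0.708% to 0.820%) and 0.207% in the DNMT3B1 line (0.171% to 0.248%). That bin begins in the stretch of low coverage. It also holds 5 of the high sites described below, which lie within 337 bp. Of its 718 methylated knockout reads, 92 came from 1 of these sites, 39984723. Positions 39984395, 39984572, 39984714 and 39984731 gave 45, 45, 45 and 52. Of its 116 methylated DNMT3B1 reads, 39984723 gave 10 and those positions 1, 7, 13 and 10. Its level without the high sites was not computed, so a rise over the whole bin is not shown. The highest DNMT3A2 bin was the neighbouring one, from 39982946 to 39983945, at 0.122% (0.0983% to 0.149%), and its lowest was the last, from 39984946 on, at 0.0672% (0.0503% to 0.0878%). The lowest knockout bin began at 39981946 with 0.537% (0.505% to 0.571%), and the lowest DNMT3B1 bin at 39980946 with 0.146% (0.127% to 0.166%).

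**Figure D3:**
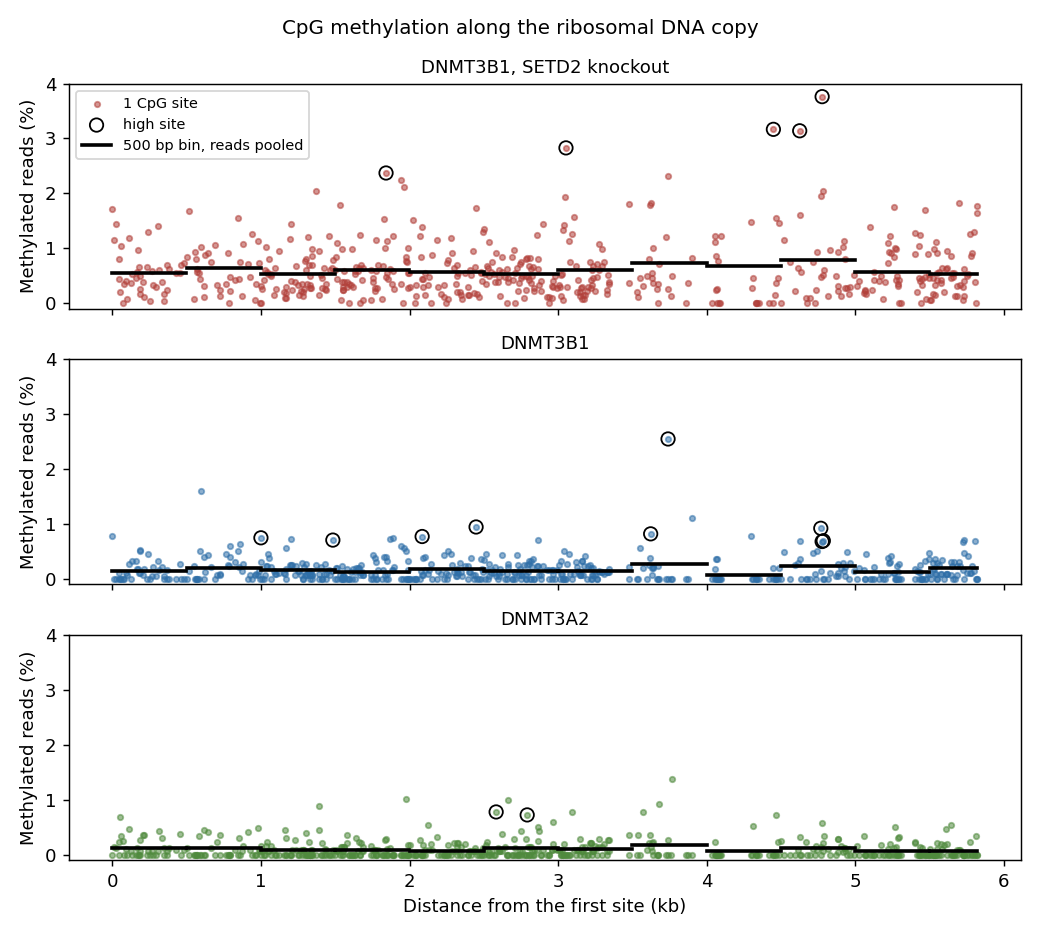
Methylated reads in percent (vertical axis) against the distance from the first site in kb (horizontal axis) in the SETD2 knockout, DNMT3B1 and DNMT3A2 lines, from top to bottom. Points are the 550 CpG sites, black lines the level of 500 bp bins with reads pooled, and open circles the high sites. The knockout bins lie between 0.522% and 0.786%, those of DNMT3B1 between 0.0761% and 0.268% and those of DNMT3A2 between 0.0663% and 0.184%.

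The ratio between the knockout and the DNMT3B1 line was even along the unit, from 3.42 to 3.90 in the 6 bins. All 6 passed a 2-fold difference, as did 18.6% of the CpG-dense 1 kb bins elsewhere, where methylated counts below 3 were raised to 3 reads and shallow bins could seldom pass. The DNMT3B1 over DNMT3A2 ratio was less even, from 1.39 in the first bin to 2.37 in the last, and 1 of the 6 bins passed 2-fold, against 2.09% elsewhere. The knockout over DNMT3A2 ratio was 4.85 to 8.18, with all 6 bins past 2-fold against 13.8% elsewhere. No rDNA bin was 2-fold lower in any of the 3 comparisons, against 2.55%, 8.91% and 5.33% elsewhere in the same order. By any amount, all 6 bins were higher in each comparison, against 75.2%, 25.0% and 67.2% elsewhere. In 500 bp bins the knockout was above the DNMT3B1 line in 12 of 12 and the DNMT3B1 line above the DNMT3A2 line in 12 of 12, in 1 of them by a ratio of only 1.00. At that bin size the highest knockout bin began at 39984446 and the highest DNMT3B1 bin at 39983446, where the highest DNMT3A2 bin also began, so the shared highest bin was lost. The knockout over DNMT3B1 ratio spread from 2.75 to 8.89, the highest being in the bin from 39983946 with the fewest reads.

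Single sites were compared by the same 2-fold rule, and the share that passed elsewhere was taken from the 1548 other CpGs of the genome that met the same read minimum. Those sites had median coverage of 458.5, 352.5 and 366 reads and median site levels of 3.09%, 0.908% and 3.75% in the knockout, DNMT3B1 and DNMT3A2 lines. In the knockout, 224 of 550 rDNA sites (40.7%) were at least 2-fold above the DNMT3B1 line, a share near the 46.5% of the other deep sites, and 6 (1.09%) were at least 2-fold below, against 1.49%. Between DNMT3B1 and DNMT3A2, 23 sites (4.18%) were higher, against 4.78% elsewhere, and 12 (2.18%) lower, against 45.2% elsewhere. At 410 of the 550 sites both lines were at or under 3 methylated reads in this last pair, so most sites could not pass. The knockout exceeded DNMT3A2 by 2-fold or more at 212 rDNA sites (38.5%), against 16.0%, and lay as far below it at 6 (1.09%), against 21.8%.

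By any amount, the knockout level exceeded the DNMT3B1 level at 460 of 550 sites (83.6%), near the 85.1% of the other deep sites. The DNMT3B1 level exceeded the DNMT3A2 level at 273 sites (49.6%), against 19.1% elsewhere, and was lower at 164 and equal at 113. The knockout level exceeded the DNMT3A2 level at 484 sites (88%), against 47.4%. No methylated read was seen at 32 sites (5.82%) in the knockout, 184 (33.5%) with DNMT3B1 and 293 (53.3%) with DNMT3A2, against 7.62%, 27.1% and 19.3% of the other deep sites. At 20 sites no line had a methylated read, and at 184 all 3 lines had at least 1. The 113 sites that were at 0 with both DNMT3B1 and DNMT3A2 had a level of 0.484% in the knockout (0.449% to 0.520%).

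The 4 other 20 kb windows with at least 40 CpGs at 500 or more reads in each line, which lie on chromosomes 2, 9 and 11, were methylated at 5.37% to 7.41% in the knockout, 2.03% to 3.26% with DNMT3B1 and 6.46% to 10.3% with DNMT3A2, taking their sites under the same minimum of 100 reads. In those windows DNMT3A2 was above DNMT3B1, the order of the genome and the opposite of the rDNA copy.

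Site levels within the rDNA copy spread more than counting error gives. The variance between sites was 5.15 times the counting variance in the knockout, 2.62 times with DNMT3B1 and 2.23 times with DNMT3A2. The median site had 0.472% methylation in the knockout (quartiles 0.256% and 0.791%), 0.0996% with DNMT3B1 (0% and 0.236%) and 0% with DNMT3A2 (0% and 0.133%). A level of 1% or more was reached at 85 sites in the knockout, 3 with DNMT3B1 and 3 with DNMT3A2. Reads amplified from 1 molecule would add to this spread, and their share is unknown.

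Site levels were only weakly related between lines. Across the 550 sites the Pearson r of the levels was 0.34 between the knockout and the DNMT3B1 line (Spearman rho 0.23), -0.05 between DNMT3B1 and DNMT3A2 (rho 0.02) and 0.05 between the knockout and DNMT3A2 (rho 0.06). Without the 15 high sites described next the values were 0.22, -0.06 and 0.02. These are descriptions over sites that share reads and sequence, and 293 of the 550 sites are at 0 with DNMT3A2. When the sites were ranked by their knockout level into 5 groups of 110, the DNMT3B1 level was 0.116% (0.0972% to 0.136%) in the lowest group and 0.257% (0.229% to 0.287%) in the highest, 2.22 times as much. The DNMT3A2 level was 0.0723% (0.0572% to 0.0902%) in the lowest group and 0.119% (0.0990% to 0.141%) in the highest, 1.64 times as much. As a group, the 110 sites highest in the knockout were therefore above the lowest group in both other libraries. Over single sites the relation to DNMT3A2 was slight, with the r of 0.05 given above. Whether the steps differ between the DNMT3B1 and DNMT3A2 libraries was not tested.

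**Figure D4:**
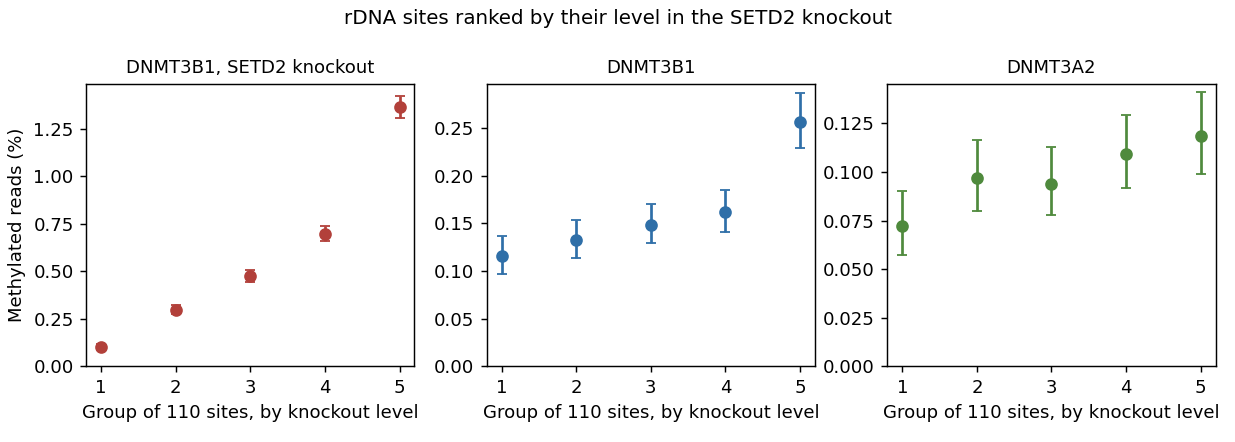
Methylated reads in percent (vertical axes, with their own scale in each panel) in 5 groups of 110 rDNA sites ordered by their level in the SETD2 knockout (horizontal axis), for the SETD2 knockout, DNMT3B1 and DNMT3A2 lines. Bars are exact 95% binomial intervals. The knockout panel shows the ranking itself, and the DNMT3B1 panel stands at 0.257% in the highest group, above the 0.162% of the group before it.

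High sites were defined in each line as those with at least 5 times the median site level, at least 10 methylated reads and a lower interval limit above the pooled level. There were 5 in the knockout, 9 with DNMT3B1 and 2 with DNMT3A2, where the median is 0 and the other criteria alone decided. These were 0.909%, 1.64% and 0.364% of the rDNA sites in the same order. Only 1 site was high in more than 1 line, which is 1 of 5 in the knockout and 1 of 9 with DNMT3B1. None of the DNMT3A2 high sites was high elsewhere. The rule acted unequally, since 209 knockout sites had at least 10 methylated reads and the median criterion, at 2.36%, left 5. Only 9 sites reached that count with DNMT3B1 and 2 with DNMT3A2. All of them were high, so the count alone decided there. The overlap thus compares unlike cutoffs, and their effect on it was not tested. The 5 knockout sites held 5.11% of the methylated reads of that line on 0.965% of its reads.

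The site that was high in both DNMT3B1-expressing lines was position 39984723. It had 3.76% methylation in the knockout (92 of 2445 reads), the highest level of any rDNA site in any line. The level was 0.682% with DNMT3B1 (10 of 1467) and 0.573% with DNMT3A2 (8 of 1396). Its neighbours at 39984714 and 39984731 stood at 1.95% and 2.05% in the knockout, at 0.923% (13 of 1409) and 0.695% (10 of 1438) with DNMT3B1, where both were high, and at 0.150% and 0.0710% with DNMT3A2. Together with positions 39984395 and 39984572, these make 5 high sites within 337 bp. Position 39984395 had 3.17% in the knockout (45 of 1421 reads), 0.203% with DNMT3B1 (1 of 493) and 0 of 466 reads with DNMT3A2, which allows up to 0.788%. Position 39984572 had 3.14% in the knockout (45 of 1433), 0.690% with DNMT3B1 (7 of 1015) and 0 of 761 reads with DNMT3A2, which allows up to 0.484%.

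The other high knockout sites lay elsewhere in the unit. Position 39982999 was methylated at 2.83% in the knockout (48 of 1697 reads). It was methylated in none of 1162 reads with DNMT3B1 and none of 1046 with DNMT3A2, counts that allow up to 0.317% and 0.352%. With the DNMT3B1 count raised to 3 reads, its log2 ratio of knockout over DNMT3B1 was 3.45 (1.77 to 5.14). This was the largest such ratio among sites with at least 10 methylated knockout reads. Next in that ratio came 39981476, with 39 of 2184 reads in the knockout and 1 of 1599 with DNMT3B1, and 39981316, with 34 of 1659 and 3 of 1219. Position 39981788 had 2.37% in the knockout (34 of 1434 reads), 0.392% with DNMT3B1 (5 of 1276) and 0.285% with DNMT3A2 (3 of 1053).

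Among the DNMT3B1 high sites the highest was 39983686, methylated at 2.31% in the knockout (19 of 822 reads) and 2.55% with DNMT3B1 (10 of 392), levels that did not differ beyond counting error. DNMT3A2 had 0 of 366 reads there, which allows up to 1.00%. Position 39982394 had 1.72% in the knockout (32 of 1856), 0.946% with DNMT3B1 (15 of 1585) and 0.0648% with DNMT3A2 (1 of 1544). Position 39983569 had 1.83% in the knockout (51 of 2792), 0.821% with DNMT3B1 (13 of 1583) and 0.143% with DNMT3A2 (2 of 1395). With DNMT3A2 counts under 3 raised to 3 reads, positions 39982394, 39984714 and 39983569 had the 3 highest DNMT3B1 over DNMT3A2 ratios of sites with at least 10 methylated DNMT3B1 reads, an order that depends on this floor. By DNMT3B1 level and not by this ratio, position 39982031 ranked 5th, with 1.39% in the knockout (28 of 2016) and 0.773% with DNMT3B1 (10 of 1294). The 9 sites together had 1.78% methylation in the knockout (1.60% to 1.98%), 3.16 times the 0.565% of the other 541 sites, and 8 of the 9 were above the knockout's median site. With DNMT3A2 they had 0.135% (0.0755% to 0.222%), against 0.0976% (0.0897% to 0.106%) at the other sites, a difference within counting error. The site below the knockout's median was 39980946, where 0 of 1950 reads were methylated in the knockout and 10 of 1335 with DNMT3B1.

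Both DNMT3A2 high sites lay close together, at 39982529 and 39982738. At 39982529 the level was 0.920% in the knockout (23 of 2501 reads), 0.0547% with DNMT3B1 (1 of 1829) and 0.780% with DNMT3A2 (13 of 1666). At 39982738 it was 0.821% in the knockout (16 of 1950), 0.259% with DNMT3B1 (4 of 1545) and 0.726% with DNMT3A2 (10 of 1377). Both were picked for their DNMT3A2 level, so its place above DNMT3B1 there is no finding, and at 39982738 the intervals of DNMT3B1 (0.0706% to 0.662%) and DNMT3A2 (0.349% to 1.33%) overlapped.

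Spacing between CpGs went with the level in the knockout. The 130 sites whose nearest CpG was 2 bp away, as in the sequence CGCG, had 0.445% methylation in the knockout (0.418% to 0.474%), against 0.652% (0.631% to 0.674%) at the 345 sites with a neighbour 3 to 10 bp away, a ratio of 0.683. With DNMT3B1 the levels were 0.152% (0.134% to 0.172%) and 0.171% (0.159% to 0.185%), a ratio of 0.889, and with DNMT3A2 0.0966% (0.0816% to 0.114%) and 0.0990% (0.0890% to 0.110%), a ratio of 0.976. The intervals overlapped in the DNMT3B1 and DNMT3A2 lines but not in the knockout. The log2 ratio of knockout over DNMT3B1 was 1.55 (1.35 to 1.75) at the sites with a neighbour 2 bp away and 1.93 (1.81 to 2.04) at those with one 3 to 10 bp away, intervals of counting error that did not overlap. At the 75 sites with no CpG within 10 bp the levels were 0.577%, 0.134% and 0.0988%.

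Outside the deeply covered stretch the same window held too few reads for site levels. Pooled over sites with reads, the flanks had 6 of 338 reads methylated in the knockout (1.78%, 0.654% to 3.82%), 14 of 358 with DNMT3B1 (3.91%, 2.15% to 6.47%) and 7 of 487 with DNMT3A2 (1.44%, 0.580% to 2.94%). All 3 were above the rDNA level of their line, with wide intervals, and 1 site gave 6 of the 14 methylated DNMT3B1 reads and 1 site 4 of the 7 with DNMT3A2.

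A cytosine that bisulfite fails to convert is read as methylated, so the rDNA level bounds from above the mean share of unconverted cytosines at these CpGs. The upper limit was 0.608% in the knockout, 0.172% with DNMT3B1 and 0.107% with DNMT3A2 over the whole unit. Over the lowest 1 kb bin, picked as the lowest of 6, it was 0.571%, 0.166% and 0.0878%. In the knockout the unit did not give the tightest bound, since the rest of the genome at 100 to 119 CpGs per kb had only 0.396% methylation (0.388% to 0.405%), and in the DNMT3B1 line that bin, at 0.135% (0.129% to 0.141%), was also below the unit. In the DNMT3A2 line the unit lay below every density bin of the rest.

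If all methylated reads of the rDNA copy were unconverted and the same share applied to every CpG, the upper limit would account for 10.4% of the genome-wide level in the knockout, 6.25% with DNMT3B1 and 1.47% with DNMT3A2. With the rDNA level taken off, the genome-wide knockout level would be 2.04 times that of DNMT3B1 instead of 2.13 times, and the DNMT3B1 level 0.361 times that of DNMT3A2 instead of 0.378 times. A share common to every CpG is bounded by the lower levels of the rest at 100 to 119 CpGs per kb. These were 0.396% in the knockout and 0.135% with DNMT3B1, so in these lines both calculations take off more than such a share could be. A share particular to the rDNA copy could make up any part of the rDNA levels themselves. Spiked-in phage DNA, which the labels name as the conversion control, was not analysed here, and the share of unconverted reads in the 3 rDNA levels was not tested.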

How the data were processed

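Whole-genome bisulfite sequencing values of 3 lines were used as deposited. Per the labels' protocols, DNA was sonicated, size-selected, converted and amplified, with methylated T7 and unmethylated lambda DNA spiked in. The deposited values, per the file headers, are counts of total and of methylated reads at each CpG, and for the SETD2 knockout also the methylated fraction, which the counts return. The 2 knockout files were identical and counted once. The headers name lines and not runs, so each line was 1 set of counts, and whether runs were pooled is not stated. Positions are on mm9, per the submitters' processing notes. How reads were aligned and called, and what was done with duplicates or reads that map to several places, is not given in the sources used here, and it could change both coverage and level.

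Levels are methylated over total reads, pooled over sites, and ratio intervals use the counting error of both levels. In 2-fold calls, counts under 3 methylated reads were raised to 3, and a site with both lines at 3 or fewer was not called. The limit given for a count of 0 is the upper end of its exact interval. Matched levels of the rest of the genome weight density bins by rDNA reads, with coverage of at most 80, 40 and 45 reads in the knockout, DNMT3B1 and DNMT3A2 lines. The text names the 5 highest sites per line with at least 10 methylated reads (only 2 existed with DNMT3A2), the 3 highest ratios in 2 comparisons, the extreme bins and the sites next to the read minimum. Further high sites were named after their values were seen. The sites, rules and comparisons were chosen with earlier results of these data known. The rules for high sites and for 2-fold calls were tested on simulated counts, and the other steps were not. Values were computed with scipy 1.17.1, pandas 2.3.3 and numpy 2.4.6 in Python 3.11.15 and drawn with matplotlib 3.10.9.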

Additional observations from a re-analysis of the deposited data

How the results depend on the processing

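The direction of every pooled ratio between lines held under all 6 alternatives tried, and each ratio stayed within its counting interval. Of 126 values recomputed for 33 results, 93 stayed within the interval of the reported value or, for counts, within 1.5 times. Without the 15 high sites the level was 0.547% in the knockout and 0.148% with DNMT3B1. Counts of 2-fold sites depended on the rule. At 3-fold, 114 sites were higher and 2 lower in the knockout than with DNMT3B1, 6 and 2 with DNMT3B1 than with DNMT3A2, and 103 and 0 in the knockout than with DNMT3A2. With methylated counts raised only to 0.5 reads, these were 371 and 19, 167 and 110, and 415 and 19. High sites numbered 29 in the knockout at 3 times the median and 0 at 10 times, and 1 with DNMT3B1 at 10 times. At 5 times the pooled level, an alternative chosen after seeing the data, there were 3 in the knockout and 4 with DNMT3B1.

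In 2 kb bins the lowest and highest knockout levels were 0.573% and 0.636%. In 500 bp bins the lowest and highest DNMT3B1 levels were 0.0761% and 0.268% and the highest DNMT3A2 level 0.184%. The upper limit of the lowest bin was 0.599% in the knockout, 0.169% with DNMT3B1 and 0.101% with DNMT3A2 in 2 kb bins, 0.0979% with DNMT3A2 in 500 bp bins, and 0.572% in the knockout at a minimum of 500 reads. The log2 ratio of the rDNA level to matched DNA was 0.38 in the knockout, 0.28 with density counted within 250 bp and 0.44 at a minimum of 10 reads in the rest. It was -1.13 with DNMT3A2 and -1.26 within 250 bp. With DNMT3B1 it was 0.03 and lay between -0.03 and 0.07, so its sign turned with the setting. The minimum of 10 reads changed the filter only in the DNMT3B1 and DNMT3A2 lines, since the knockout values start at 10 reads. The cause of these shifts was not tested. The ratio at 39982999 depends on the floor, with a log2 value of 3.45 at 3 reads and 6.04 at 0.5 reads. The members left out as a stretch of low coverage and the lower floor at named sites were chosen after seeing the data. No paired analysis was possible because the values come as 1 set per line, and for the same reason no replicate could be left out. Depth limits single sites, at which 3 reads are a level of 0.267% at the median DNMT3A2 coverage.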
